A study of Mus musculus with 16 samples.

Results

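Gene expression was compared between hearts of mice lacking Fgf21 (Fgf21 KO, 4 libraries) and hearts of wild-type mice (WT, 4 libraries). These are 8 of the 16 libraries of a study of 4 genotypes. The other 8 came from mice lacking both Clpp and Fgf21 (double KO, 4 libraries) and mice lacking Clpp alone (Clpp KO, 4 libraries), and they set the loss of Fgf21 without CLPP beside its loss in otherwise wild-type hearts. They also entered the filter on low counts and the shared estimate of spread, since a single model was fitted to all 16 libraries. The members were the libraries that the labels assign to the Fgf21 KO and WT genotypes, and all 15255 genes that passed a filter on low counts were tested, out of 36499 entries in the table. All mice were on normal chow. Whole-body deletion was obtained, per the labels' protocols, by mating floxed mice (Clpp fl/fl, or Clpp fl/fl Fgf21 fl/fl) with mice in which the β-actin promoter drives Cre recombinase in all tissues; the protocol describes the Clpp and the double knockout, and it leaves out the mating that gave the single Fgf21 KO. Age and sex are not stated. The labels number the repeats of a genotype without saying whether each is a separate animal, so each p-value below is set against library-to-library spread, some of which may be technical.

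FGF21 is a secreted hormone of the fibroblast growth factor family, made mostly by the liver and also by muscle, fat and heart when mitochondria are impaired or nutrients are short. It acts on cells that carry an FGF receptor, chiefly FGFR1, together with the co-receptor β-Klotho, and signals through the ERK kinases. In metabolic tissues it is known for raising fatty acid oxidation and ketone production, and in the heart for actions against hypertrophy and oxidative damage.

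Fgf21 (ENSMUSG00000030827) lies on chromosome 7, positions 45613886 to 45615490 of GRCm38, on the minus strand. It had 0 counts in each of the 4 Fgf21 KO libraries. WT replicates 1 to 4 had 1, 0, 5 and 0 counts. The deleted gene was therefore at or near the limit of detection in both groups: a count of 0 allowed a level of up to 0.0637 to 0.0755 CPM (counts per 1e6 counts of the library) in Fgf21 KO libraries and 0.0826 to 0.0827 CPM in the WT libraries without a count. The difference in mean CPM was not detectable (exact two-sided permutation test p = 0.429, where the smallest p that 4 against 4 libraries can give is 0.0286). The double KO libraries had 0 counts each and the Clpp KO libraries 21, 6, 28 and 14 counts. Clpp, the proteolytic subunit of a mitochondrial matrix protease, was intact in both groups at 37.7 ± 7.48 CPM in Fgf21 KO and 33.6 ± 6.49 CPM in WT (SD, n = 4 each). The CPM of Fgf21 above are per library total. For Clpp and the genes below, CPM are per library total scaled by TMM, a factor for RNA composition.

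The libraries of a group were not alike, above all in WT. Markers of atrial cardiomyocytes (all 12 of 12 tested) summed to 695, 2350, 992 and 3920 CPM in Fgf21 KO replicates 1 to 4. In WT replicates 1 to 4 they summed to 465, 11300, 468 and 7390 CPM. The 4 Y-linked genes summed to 54.6 to 69.7 CPM in Fgf21 KO and to 2.29 CPM in WT replicate 2, against 35.3 to 63.1 CPM in the other WT libraries. Fibroblast markers summed to 1290 to 1740 CPM in Fgf21 KO and to 3620 and 2420 CPM in WT replicates 2 and 4, while both other WT libraries had 1370 CPM. WT libraries 1 and 3 resembled each other most (Spearman 0.9971 across genes), yet differed beyond sampling noise (chi-square per degree of freedom 5.68, against 50.4 to 408 for other pairs of a group) and were kept as 2 libraries. Ventricular markers were high in every library, from 8930 to 15600 CPM in Fgf21 KO and from 5630 to 11300 CPM in WT, so defining genes of the labelled tissue were present. In such bulk tissue, fewer cells of a type and less RNA per cell cannot be told apart. Values without WT replicates 2 and 4 are given below beside those that they move most. Leaving these libraries out does not balance the groups. The median log2 fold change of atrial markers then goes from -0.70 to 2.31, so the imbalance in these markers turns round.

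Few genes were called between Fgf21 KO and WT hearts in the main test, and other tools called more. At an adjusted p under 0.05 in the edgeR quasi-likelihood test, 7 genes were called, which is 0.0459% of the 15255 tested. The 5 higher genes (0.0328%) were Kcnj14, Gm14659, Ush1c, Gm5522 and Bcat2, and the 2 lower genes (0.0131%) were Ftl1-ps1 and Mamstr. At an unadjusted p under 0.05 there were 1399 genes (9.17%), and in 415 genes (2.72%) the 4 Fgf21 KO libraries did not overlap the 4 WT libraries. At the same cut on adjusted p, DESeq2 called 34 genes and limma voom with quality weights 101, both with the 7 among them. Of the 7 called genes, 4 lie within 1 Mb of Fgf21 on chromosome 7, and another is a copy of one of those 4.

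Kcnj14 (ENSMUSG00000058743) encodes an inward-rectifier potassium channel and lies on chromosome 7, positions 45816460 to 45824782. It stood at 48.3, 23.4, 45.4 and 37.7 CPM in Fgf21 KO replicates 1 to 4, and at 0.623, 0.151, 0.698 and 0.143 CPM in WT replicates 1 to 4. The groups were far apart, and WT replicates 2 and 4 were the lowest of all. The log2 fold change was 6.57 ± 0.43 (SE, adjusted p = 2.41e-06), and pooled counts were 96.8-fold higher in Fgf21 KO. Gm5522 (ENSMUSG00000100212), a processed pseudogene of Kcnj14 on chromosome 1 (positions 10805281 to 10806522), had 18, 18, 15 and 12 counts in Fgf21 KO and 0 in each WT library. With a floor of 3 counts over the WT group, Gm5522 was at least 22.8-fold higher in Fgf21 KO (adjusted p = 0.012). Its transcript aligned to Kcnj14 over 1242 bases with 11 differences, and 78.8% of its 31-base words also occur in Kcnj14, and reads within such words cannot be told apart. Gm5522 took 0.617% to 1.48% of the counts of the pair in Fgf21 KO. The 91 bases with the most differences are shown from the GENCODE M21 transcripts, 5′ to 3′, with the bases that differ in capitals; Kcnj14 is chr7:45819929-45820019 (minus strand, coding sequence) and Gm5522 is chr1:10805281-10805371 (plus strand).
Kcnj14: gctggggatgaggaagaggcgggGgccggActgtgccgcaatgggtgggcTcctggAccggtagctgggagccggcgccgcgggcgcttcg
Gm5522: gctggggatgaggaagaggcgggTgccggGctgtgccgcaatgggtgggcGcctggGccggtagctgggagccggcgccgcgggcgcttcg
With the copies' counts added to their parent genes, an alternative chosen after seeing the data, Kcnj14 had a log2 fold change of 6.58 ± 0.43.

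Ush1c (ENSMUSG00000030838) encodes harmonin, a scaffold protein of stereocilia and brush borders, and lies on chromosome 7, positions 46195350 to 46238503, 580 kb from Fgf21. Its levels were 18.7, 12.4, 19.6 and 14 CPM in Fgf21 KO and 3.26, 3.91, 3.08 and 1.17 CPM in WT. All Fgf21 KO libraries were above all WT libraries, with a log2 fold change of 2.49 ± 0.28 (adjusted p = 0.000688). Bcat2 (ENSMUSG00000030826) encodes the mitochondrial aminotransferase that takes the amino group from branched-chain amino acids, and lies on positions 45570153 to 45589711, 24.2 kb from Fgf21. It had 195, 142, 141 and 113 CPM in Fgf21 KO and 63.5, 36.7, 60 and 74.2 CPM in WT. The groups did not overlap, and the log2 fold change was 1.34 ± 0.20 (adjusted p = 0.0127). Of its 31-base words, 12.8% also occur in the transcript 0610005C13Rik. Mamstr (ENSMUSG00000042918), a transcriptional coactivator that works with MEF2 factors in striated muscle, lies 24.5 kb from Fgf21 at positions 45639977 to 45646521. It had 1.81, 1.67, 1.56 and 1.79 CPM in Fgf21 KO and 3.3, 4.1, 3.52 and 5.61 CPM in WT. Here every Fgf21 KO library was below every WT library, with a log2 fold change of -1.27 ± 0.18 (adjusted p = 0.00767).

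Gm14659 (ENSMUSG00000081269), a processed pseudogene on the X chromosome (positions 63184686 to 63186526), was the called gene with no link to chromosome 7 in its annotation and few words shared with other genes (9.6%). Its counts were 95, 72, 67 and 78 in Fgf21 KO and 3, 9, 4 and 4 in WT. The log2 fold change was 4.05 ± 0.40 (adjusted p = 0.000153), and no WT library came near an Fgf21 KO library. Ftl1-ps1 (ENSMUSG00000062382), a copy of the ferritin light chain gene Ftl1, lies on chromosome 13, positions 74399694 to 74407346. It had 5, 9, 5 and 12 counts in Fgf21 KO and 108, 301, 77 and 214 counts in WT. All WT libraries were above all Fgf21 KO libraries, with a log2 fold change of -4.34 ± 0.48 (adjusted p = 0.000593).

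**Figure D1:**
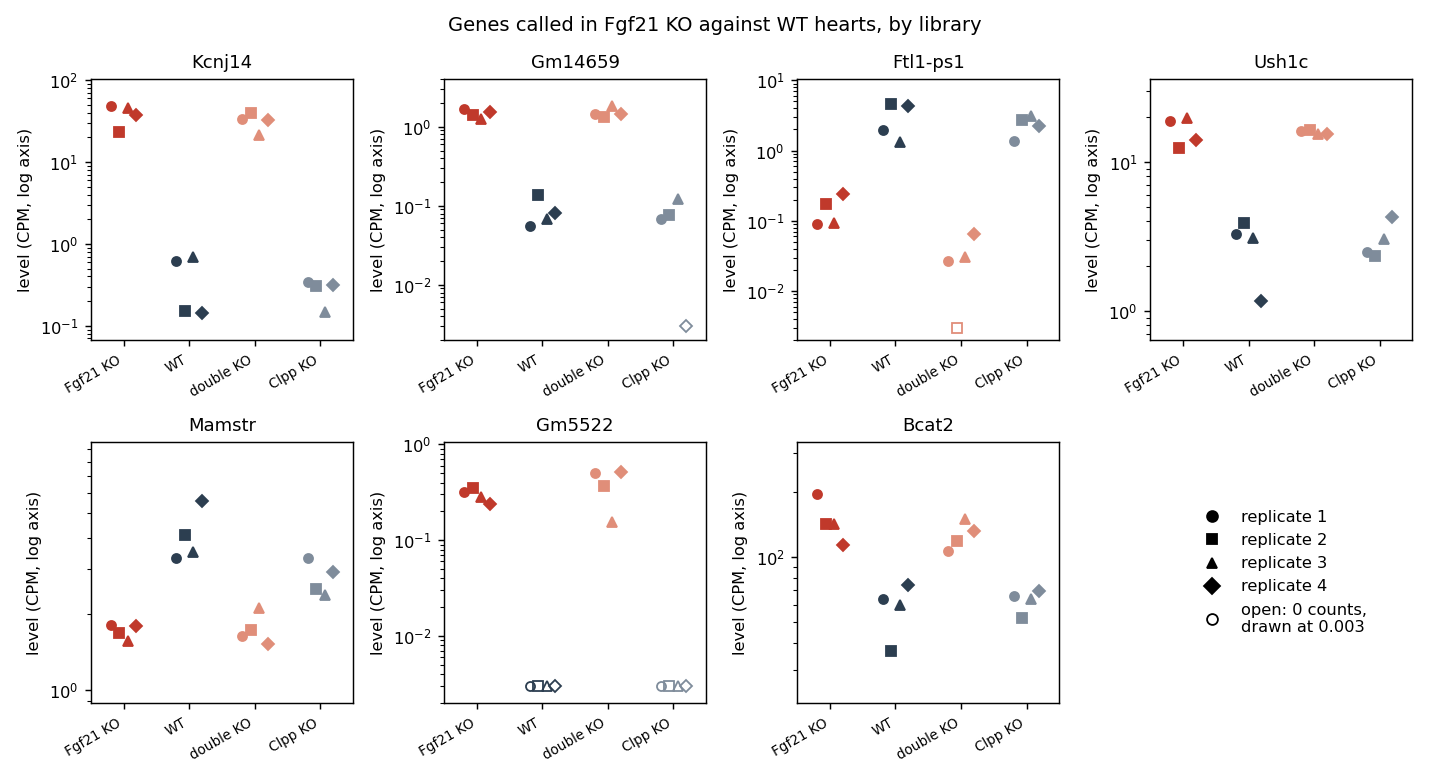
Levels of the 7 genes called in Fgf21 KO against WT, in CPM on a log axis, with 1 point per library and open points for libraries with 0 counts; each panel has its own axis range. In every panel the 4 Fgf21 KO points stand clear of the 4 WT points, and the double KO and Clpp KO points, which enter that test through the estimate of spread and not through its fold change, divide in the same direction.

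These calls differed in how much they rested on single choices. Kcnj14, Gm14659 and Ftl1-ps1 passed in all settings that gave them a value, except that Ftl1-ps1 has no value of its own once summed with Ftl1. With only the 8 libraries in the model, Ush1c (adjusted p = 0.0549), Gm5522 (0.0507), Mamstr (0.174) and Bcat2 (0.268) did not pass. Mamstr also missed without WT replicates 2 and 4 (adjusted p = 0.0614), as did Gm5522 (0.0772), and both missed with Fgf21 KO replicate 4 left out as well (0.118 for each). Gm5522 further missed with the repeat number as a block (0.117). Bcat2 missed without Fgf21 KO replicate 1 (0.0595) or WT replicate 3 (0.0568), and Gm5522 without Fgf21 KO replicate 1 (0.0573). The log2 fold changes over all settings stayed between 1.17 and 1.47 for Bcat2, between -1.5 and -0.99 for Mamstr and between 2.24 and 2.70 for Ush1c.

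The genes around Fgf21 were examined as a set, since 4 of the 7 calls lie there. Those 4 genes are counted in the values within 1 Mb below, which therefore restate that choice in part. Within 1 Mb of Fgf21, 77 genes were tested, and 21 of them (27.3%) had an unadjusted p under 0.05, against 8.93% of the 13835 genes on other chromosomes. Of those 21 genes, 9 were higher and 12 lower in Fgf21 KO, and the median log2 fold change of the 77 was 0.01, so the region did not move 1 way. Without WT replicates 2 and 4 the count was 26 of 77 (18 higher, 8 lower), against 7.08% of the same 13835 genes on other chromosomes. From 1 to 5 Mb away the share was 15.9% of 63 genes, and from 5 to 20 Mb it was 10.8% of 212 genes. After the 4 called genes, the smallest p-values within 1 Mb belonged to 4 genes that were not called. Fam83e (106 kb away) had 0.783, 0.255, 0.677 and 0.498 CPM in Fgf21 KO and 0.147, 0.0453, 0.0511 and 0.041 CPM in WT (log2 fold change 2.92 ± 0.56, adjusted p = 0.111). Ccdc114, a component of the outer dynein arm docking complex of cilia 309 kb away, had a log2 fold change of -1.37 ± 0.27 (adjusted p = 0.125). The pseudogene Gm18706 (476 kb) had 1.95 ± 0.43 (adjusted p = 0.241), and Fut2, a fucosyltransferase gene 33.1 kb away, had -1.76 ± 0.43 (adjusted p = 0.498), or -1.09 without WT replicates 2 and 4. In Fam83e, Ccdc114 and Gm18706 the groups did not overlap, while in Fut2 they did. Just past 1 Mb, Aspdh and Lrrc4b had log2 fold changes of 2.07 ± 0.37 (adjusted p = 0.0673) and 1.41 ± 0.35 (adjusted p = 0.538), and Josd2, which lies next to Aspdh, had -0.47 ± 0.12 (adjusted p = 0.538). Without WT replicates 2 and 4, Lrrc4b had 0.89 and Josd2 had -0.28.

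**Figure D2:**
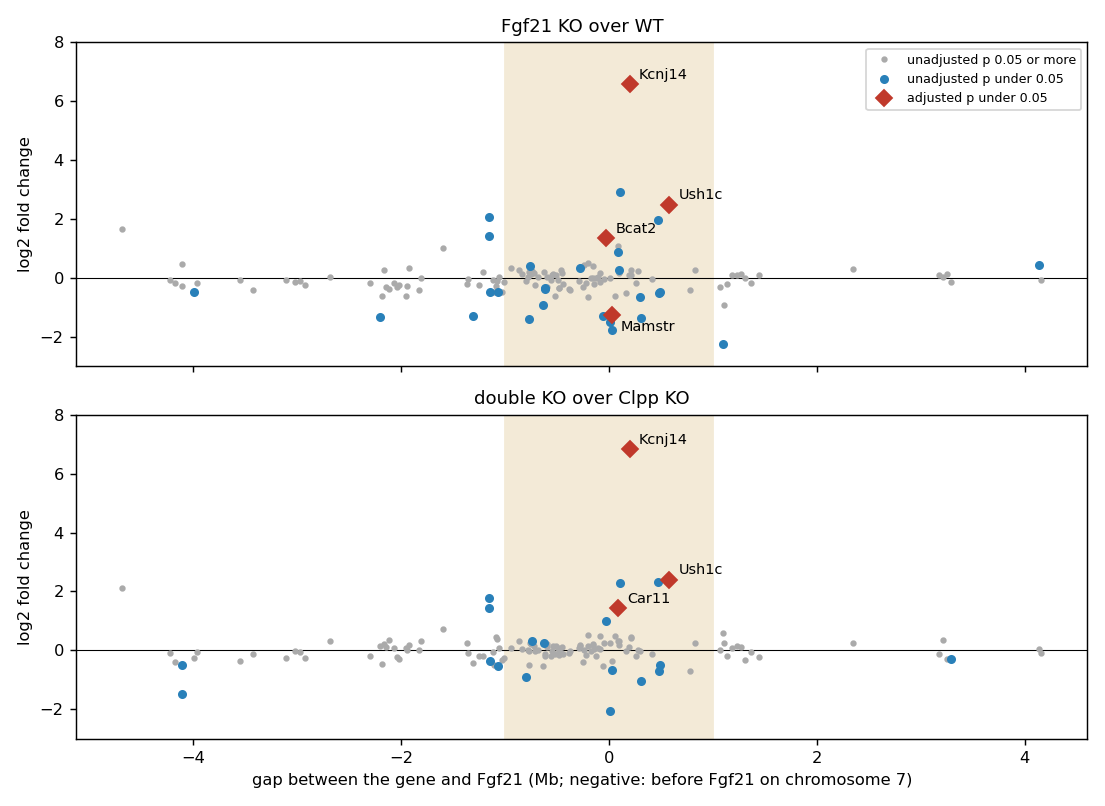
Log2 fold change of tested genes within 5 Mb of Fgf21 against the gap between each gene and Fgf21, for Fgf21 KO over WT (top) and double KO over Clpp KO (bottom). The shaded band marks 1 Mb on either side. Klk1b22, 1500 kb before Fgf21, lies above the axis range in both panels and is not seen. Its log2 fold changes were 9.48 (adjusted p = 0.538) and 9.07 (adjusted p = 0.994). The 4 called genes in the top panel lie in the band, 3 of them at greater positions than Fgf21, and Kcnj14 and Ush1c are called at similar heights in the bottom panel.

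Loss of Fgf21 could be read a second time, without CLPP, in 8 libraries whose levels form no part of the first fold changes. All 16 libraries share the filter and the estimate of spread. The mating of the single Fgf21 KO is not described, so whether both comparisons concern the same deleted allele is not known. In double KO against Clpp KO, 9 genes were called (0.059% of those tested), 6 higher (0.0393%) and 3 lower (0.0197%). An unadjusted p under 0.05 was found for 3.55% of genes, and groups that did not overlap for 5.78%. They included 5 of the 7 genes above: Kcnj14 (log2 fold change 6.84 ± 0.46, adjusted p = 3.49e-06), Gm14659 (4.40 ± 0.43, adjusted p = 0.000135), Ftl1-ps1 (-6.18 ± 0.63, adjusted p = 0.000169), Ush1c (2.40 ± 0.28, adjusted p = 0.00137) and Gm5522 (7.16 ± 0.84, adjusted p = 0.0142). Bcat2 and Mamstr were not called there. Bcat2 had 106, 118, 150 and 131 CPM in double KO and 65.6, 52.3, 63.5 and 69.3 CPM in Clpp KO, groups that did not overlap (log2 fold change 1.01 ± 0.20, adjusted p = 0.133). Mamstr had 1.63, 1.72, 2.11 and 1.51 CPM in double KO and 3.3, 2.5, 2.38 and 2.92 CPM in Clpp KO (-0.67 ± 0.18, adjusted p = 0.726). The 4 further calls were Car11, a carbonic anhydrase-related gene 84.4 kb from Fgf21 (1.43 ± 0.23, adjusted p = 0.026), mt-Nd3 (1.44 ± 0.20, adjusted p = 0.00529), Glns-ps1 (-7.72 ± 1.3, adjusted p = 0.0486) and the vomeronasal receptor gene Vmn2r3 (-2.08 ± 0.28, adjusted p = 0.00493). In Fgf21 KO against WT, Car11 had 0.89 ± 0.22 (adjusted p = 0.538), or 1.36 (adjusted p = 0.0574) without WT replicates 2 and 4, and Vmn2r3 had -0.37 ± 0.31 (adjusted p = 0.657).

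Near Fgf21 the 2 comparisons gave like values for some genes and unlike values for others. Fut2 had log2 fold changes of -1.76 in Fgf21 KO against WT and -0.36 in double KO against Clpp KO. For Atf5 they were -0.11 and -0.92. Across the 77 genes within 1 Mb, the log2 fold changes had a Pearson correlation of 0.93. It was 0.91 across the 63 genes from 1 to 5 Mb away and 0.33 across the 212 genes from 5 to 20 Mb. Across the 13835 genes on other chromosomes it was 0.35. The values of 0.93 and 0.91 take in genes far from the rest, such as Kcnj14 (6.57 and 6.84) and Klk1b22 (9.48 and 9.07, 1500 kb away). Correlations without such genes were not computed. Genes are not independent replicates, and the model shares its estimate of spread between both comparisons. An unadjusted p under 0.05 in both comparisons was found for 11 of the 77 genes in the same direction and 0 in opposite directions; on other chromosomes it was found for 76 genes in the same direction and 1 in opposite directions. The difference between the effects of Fgf21 loss without and with CLPP was tested as an interaction. No gene passed in edgeR (299 genes, 1.96%, had an unadjusted p under 0.05). DESeq2 called 3 genes and limma voom with quality weights 1. Eps8l1, an actin-regulating protein gene on chromosome 7 that lies 41100 kb from Fgf21, was called by both of these tools. Its levels were 4.48, 3.82, 2.63 and 3.72 CPM in Fgf21 KO and 9.23, 6.4, 8.79 and 9.43 CPM in WT, groups that did not overlap (log2 fold change -1.21 ± 0.21, adjusted p = 0.0601). In double KO against Clpp KO it had 0.23 ± 0.21, and the interaction was 1.44 ± 0.30 on the log2 scale (adjusted p = 1.0 in edgeR).

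**Figure D3:**
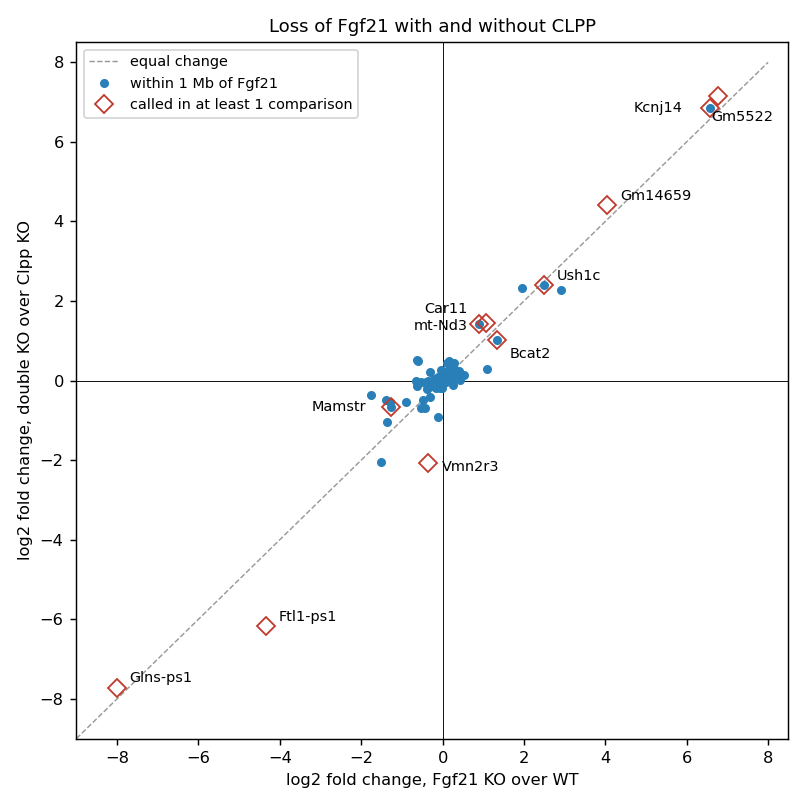
Log2 fold change in Fgf21 KO over WT (x axis) against that in double KO over Clpp KO (y axis), for genes within 1 Mb of Fgf21 (filled points) and genes called in at least 1 of the comparisons (open diamonds); the dashed line marks equal change. Kcnj14, Gm5522, Gm14659, Ush1c and Glns-ps1 lie near that line, whereas Vmn2r3 is at -0.37 on the x axis and -2.08 on the y axis.

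Several of the largest differences concerned genes with a near-identical copy elsewhere in the genome. Reads from such pairs are divided between them by the counting tool, so the pair is best read together. Among them was mt-Nd3 (ENSMUSG00000064360), the mitochondrial gene for a subunit of respiratory complex I. Its partner was Gm28438 (ENSMUSG00000101939), a nuclear copy on chromosome 1 at positions 24612775 to 24613119. The 2 transcripts aligned over 345 bases with a single difference, T3C, counted from the first base of mt-Nd3 with the mitochondrial base first. The first 91 bases are shown with that base in capitals; mt-Nd3 is chrM:9459-9549 (plus strand) and Gm28438 is chr1:24613029-24613119 (minus strand).
mt-Nd3: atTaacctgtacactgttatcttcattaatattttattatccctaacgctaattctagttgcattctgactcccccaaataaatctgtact
Gm28438: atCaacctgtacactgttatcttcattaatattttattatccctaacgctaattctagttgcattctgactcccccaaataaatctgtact
Counts given to Gm28438 were 9, 588, 2475 and 14 in Fgf21 KO, and 71774, 36587, 73907 and 45313 in WT. The copy thus took 0.00428% to 0.985% of the counts of the pair in Fgf21 KO and 29.3% to 37.4% in WT. It took 0.00533% to 0.149% in double KO and 40.5% to 50.0% in Clpp KO, so its share was under 1% in all 8 libraries without Fgf21 and at least 29.3% in the other 8.

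mt-Nd3 as counted stood at 3740, 3600, 4680 and 3510 CPM in Fgf21 KO and at 2300, 1330, 2100 and 1700 CPM in WT, with no overlap (log2 fold change 1.06 ± 0.20, adjusted p = 0.086). The fitted log2 fold change of Gm28438 was -6.11 ± 1.43 (adjusted p = 0.53). With the 2 summed, the pair had 3740, 3610, 4720 and 3520 CPM in Fgf21 KO and 3620, 1880, 3360 and 2630 CPM in WT. The groups then overlapped, and the log2 fold change was 0.44 ± 0.21 (adjusted p = 0.539). In double KO against Clpp KO the call of mt-Nd3 was also lost in the sum, at 0.57 ± 0.21 (adjusted p = 0.994). Of 4 other mitochondrial copies read in this way, none had a share that separated the 8 libraries without Fgf21 from the other 8. Gm28661, the copy of mt-Co2, took 0.574% to 21.9% of its pair in Fgf21 KO and 0.0037% to 3.13% in WT, and Gm29216, the copy of mt-Co1, took 20.8% to 43.7% in Fgf21 KO and 19.5% to 42.8% in WT. Gm28437, the copy of mt-Co3, had 192, 7899, 25657 and 4054 counts in Fgf21 KO and 48, 0, 302 and 41 counts in WT, with a fitted log2 fold change of 6.71 ± 1.62 (adjusted p = 0.538); its share of the pair was at most 1.05% in any library. Gm10925, the copy of mt-Atp6, had 21, 2, 9 and 33 counts in Fgf21 KO and 0, 262, 0 and 153 counts in WT.

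**Figure D4:**
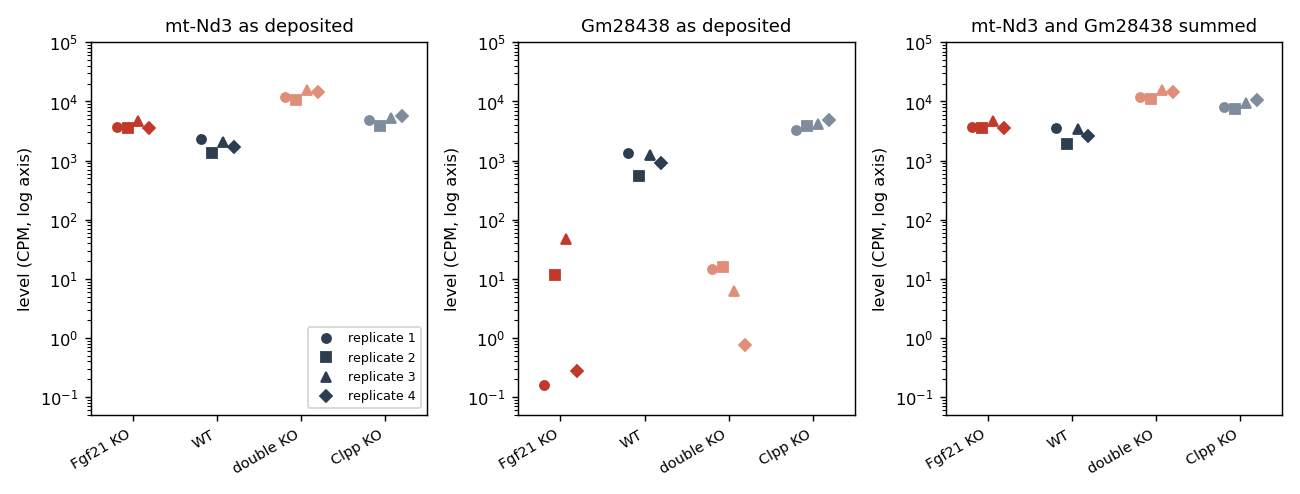
Levels of mt-Nd3, of its nuclear copy Gm28438 and of their sum in each library, in CPM on a log axis shared by the 3 panels. The copy is at or below 46.5 CPM in every Fgf21 KO library and at or above 552 CPM in every WT library, while the summed levels of the 2 groups overlap.

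Ftl1-ps1 and Glns-ps1 were pairs of the same kind but of small counts beside their parents. Ftl1-ps1 aligned to Ftl1, the ferritin light chain gene 154 kb from Fgf21, over 910 bases with 4 differences. It took 0.0303% to 0.113% of the counts of the pair in Fgf21 KO and 0.714% to 1.55% in WT. Ftl1 itself averaged 252 ± 41.8 CPM in Fgf21 KO and 250 ± 74.7 CPM in WT (SD, n = 4 each), and the sum had a log2 fold change of -0.01 ± 0.20 (adjusted p = 0.993). Part of the coding sequence of Ftl1 (chr7:45458155-45458245, minus strand) and the same part of Ftl1-ps1 (chr13:74407017-74407107, plus strand) show 2 of these differences, in capitals.
Ftl1: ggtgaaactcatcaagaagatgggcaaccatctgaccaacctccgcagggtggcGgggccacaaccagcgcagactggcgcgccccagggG
Ftl1-ps1: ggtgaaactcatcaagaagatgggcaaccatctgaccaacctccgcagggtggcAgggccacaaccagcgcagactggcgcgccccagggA
Glns-ps1 (ENSMUSG00000082100), named after its values were seen, is a processed pseudogene of Glul, the glutamine synthetase gene, on chromosome 11 at positions 19720355 to 19721472. It had 0, 1, 0 and 0 counts in Fgf21 KO and 153, 56, 139 and 84 counts in WT, and was not called (log2 fold change -8.01 ± 1.37, adjusted p = 0.0601). With only the 8 libraries in the model it was called. Glul had 299, 311, 238 and 190 CPM in Fgf21 KO and 203, 114, 202 and 227 CPM in WT, and the sum of both gave 0.46 ± 0.22 (adjusted p = 0.539). These copies held so few of the pair's counts that the sums could hardly differ from the parents alone. With copies summed throughout, 5 genes were called in Fgf21 KO against WT: Kcnj14, Gm14659, Ush1c, Mamstr and Bcat2. Gm5522 and Ftl1-ps1 have no value of their own in that setting, so they could not be called.

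Among uncalled genes with a mean of at least 1 CPM and groups that did not overlap, the smallest p after those of Eps8l1, the neighbours of Fgf21 and the pairs with copies was that of Wdfy1, an adaptor protein gene of endosomes on chromosome 1. It had 5.05, 4.61, 4.74 and 5.67 CPM in Fgf21 KO and 9.84, 9.49, 9.79 and 10.7 CPM in WT. The spread within each group was small, and the log2 fold change was -0.99 ± 0.21 (adjusted p = 0.221). Wdfy1 was called with only the 8 libraries in the model (adjusted p = 0.033) and by DESeq2 (adjusted p = 0.00554). In double KO against Clpp KO Wdfy1 had -1.06 ± 0.21 (adjusted p = 0.133). Higher in all Fgf21 KO libraries, again without a call, were Cngb3, a subunit of the cone photoreceptor channel (log2 fold change 1.79 ± 0.39), Cubn, the endocytic receptor cubilin (1.23 ± 0.31), Trim7, a ubiquitin ligase (0.90 ± 0.22), Usp2, a deubiquitinase with a daily rhythm (0.75 ± 0.20), Erich1 (0.57 ± 0.14) and Gm14327 (0.55 ± 0.15), which shares 93.0% of its 31-base words with other genes. Lower in all Fgf21 KO libraries were Gcnt1, an enzyme of O-glycan synthesis (-0.99 ± 0.22), Aldh1a3, an enzyme of retinoic acid synthesis (-1.94 ± 0.51, but -1.02 without WT replicate 4 and -0.48 without WT replicates 2 and 4), and Svep1, an extracellular matrix protein (-0.37 ± 0.10). For these genes the adjusted p in edgeR ran from 0.238 to 0.538. Of the 42 genes named here with a fold change and not called, DESeq2 called 16 and limma voom 13.

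The genes through which FGF21 is known to act were then read as lists. Of the receptors and co-receptors, 4 of 7 passed the filter on low counts, 1 had a log2 fold change above 0 and 3 below, and none was called. Klb, the gene of the co-receptor β-Klotho, was under the filter, with 0, 4, 2 and 4 counts in Fgf21 KO and 5, 13, 3 and 12 counts in WT. Fgfr1 had 21.6, 24.3, 18.3 and 24.1 CPM in Fgf21 KO and 20, 40.7, 21.3 and 34 CPM in WT (log2 fold change -0.39 ± 0.19, adjusted p = 0.538). WT replicates 2 and 4 exceeded all Fgf21 KO libraries while both other WT libraries lay within their range, and without them the value was 0.11. Fgfr2 had -1.04 ± 0.63 (0.34 without them), Fgfr3 had -0.13 ± 0.20 (0.27 without them) and the receptor-like Fgfrl1 had 0.18 ± 0.13, or -0.03 with scaling by library size alone.

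Among targets and feedback regulators of FGF and ERK signalling, 0 of 19 were called; 14 had a log2 fold change below 0 and 5 above, with a median of -0.24 against -0.01 for all genes. Of the 19, 4 had an unadjusted p under 0.05, where 9.17% of all genes did, and in 3 the groups did not overlap (2.72% of all genes). Without WT replicates 2 and 4 the median was -0.19, with 7 genes above 0 and 12 below. In that setting 4 of 19 (21.05%) had an unadjusted p under 0.05, all lower, against 7.38% of all genes in either direction. Egr1, an immediate early transcription factor, had 4.43, 4.29, 5.6 and 12.7 CPM in Fgf21 KO and 16.6, 17, 17 and 23.4 CPM in WT (-1.45 ± 0.39, adjusted p = 0.538). All Fgf21 KO libraries were below all WT libraries, replicate 4 being the highest in either group. Spry1, a feedback inhibitor of receptor tyrosine kinases, had 19.6, 16.8, 20.8 and 20.3 CPM in Fgf21 KO and 25.4, 21.7, 25.2 and 24.1 CPM in WT, also without overlap (-0.31 ± 0.13, adjusted p = 0.538). Fos, a partner of Jun in AP-1, had -1.89 ± 0.54 (adjusted p = 0.538) with groups that overlapped, or -0.61 without WT replicates 2 and 4. The level of Fos was 1.87 and 2.18 CPM in WT replicates 1 and 3 and 7.27 and 8.38 CPM in WT replicates 2 and 4.

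Lists of fuel oxidation had positive medians. Of 29 genes of fatty acid uptake and oxidation none was called; 28 had a log2 fold change above 0, the median was 0.47, and 12 had an unadjusted p under 0.05, where 9.17% of all genes did. Cpt2, which regenerates acyl-CoA inside mitochondria, had 164, 170, 134 and 129 CPM in Fgf21 KO and 114, 59.4, 117 and 104 CPM in WT (log2 fold change 0.60 ± 0.18, adjusted p = 0.538). Decr1, which reduces dienoyl-CoA in the oxidation of unsaturated fatty acids, had 287, 328, 282 and 248 CPM in Fgf21 KO and 248, 122, 241 and 207 CPM in WT (0.49 ± 0.19, adjusted p = 0.538). WT replicate 2 was the lowest library for both genes, and without WT replicates 2 and 4 Cpt2 had 0.38 and Decr1 had 0.24. The list's median was then 0.20, with 27 genes above 0, and 2 of 29 (6.9%) had an unadjusted p under 0.05, near the 7.38% of all genes. The list of branched-chain amino acid breakdown held the single called gene of all 42 lists with a tested member, Bcat2. Its median over 25 genes was 0.34, and 0.07 without WT replicates 2 and 4. Bckdha, a subunit of the branched-chain dehydrogenase that acts after Bcat2, had 0.52 ± 0.22, and Bckdk, the kinase that inhibits this dehydrogenase, had 0.33 ± 0.13 (adjusted p = 0.538 for both). Without WT replicate 2 alone, Bckdha had 0.34 and Bckdk had 0.21. Among PPAR targets and coactivators, 15 of 21 were above 0 with a median of 0.26, or 0.27 without those libraries, and Ppargc1b, a coactivator of mitochondrial genes, had 0.63 ± 0.19 (adjusted p = 0.538), or 0.40 without them. The 15 genes of serine, folate and asparagine synthesis had a median of -0.29, with 5 above 0 and 10 below, and 0.05 without WT replicates 2 and 4.

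Genes of mitochondrial function and stress gave no call. All 36 nuclear complex I subunits had a log2 fold change above 0, with a small median of 0.20 that was 0.25 without WT replicates 2 and 4. Scaling by library size alone gave them a median of -0.00 and moved the median of all genes to -0.23. The 19 citric acid cycle genes had a median of 0.31, and 0.03 without WT replicates 2 and 4. Counts from mtDNA-encoded mRNAs made up 29.2%, 38.5%, 37.8% and 38.8% of the library in Fgf21 KO and 39.1%, 25.5%, 39.4% and 28.9% in WT. The means were 36.1% ± 4.62 and 33.2% ± 7.09 (SD, n = 4 each), which did not differ beyond their spread (exact two-sided permutation test p = 0.686). The difference of 2.82 percentage points was 0.256 without WT replicate 2 and -3.2 without WT replicates 2 and 4. With the nuclear copies added, the mean shares were 40.2% ± 3.99 in Fgf21 KO and 36.9% ± 6.45 in WT (same permutation test, p = 0.343). Of 20 genes of the integrated stress response, through which mitochondrial stress is known to induce Fgf21, 8 were above 0 and 12 below, with a median of -0.06. Without WT replicates 2 and 4, 11 were above 0 and 9 below, with a median of 0.08, and 3 of the 20 had an unadjusted p under 0.05, all higher (7.38% of all genes had one, in either direction). Gdf15, a stress hormone of that response, had 0.943, 0.274, 0.733 and 0.677 CPM in Fgf21 KO and 1.52, 1.27, 1.89 and 0.902 CPM in WT, overlapping in 1 library (-1.08 ± 0.63, adjusted p = 0.567).

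Interferon-stimulated genes, which serve antiviral defence, were nearly all below 0. Of 37 tested, 36 had a log2 fold change below 0, none was called, 15 had an unadjusted p under 0.05 (9.17% of all genes did), and in 9 the groups did not overlap (2.72% of all genes). The median was -0.37. Usp18, which removes the interferon-induced modifier ISG15 from proteins, had 1.89, 1.74, 1.71 and 1.67 CPM in Fgf21 KO and 2.69, 3.3, 2.78 and 2.64 CPM in WT (-0.70 ± 0.17, adjusted p = 0.421). Its 4 Fgf21 KO values lay close together below the lowest WT value. Zbp1, a nucleic acid sensor, had -1.33 ± 0.36, Oas2, an oligoadenylate synthetase, had -0.69 ± 0.19, and Rtp4, a receptor transporter protein, had -0.62 ± 0.17 (adjusted p = 0.538 for each). Without WT replicates 2 and 4, Zbp1 had -0.66, Oas2 -0.35 and Rtp4 -0.34. The summed level of the list was 225 to 258 CPM in Fgf21 KO and 281, 367, 285 and 319 CPM in WT. Macrophage markers summed to 171 to 223 CPM in Fgf21 KO and 160 to 326 CPM in WT, and their part in the result was not tested. Without WT replicates 2 and 4, 32 of the 37 genes were below 0, 3 (8.11%) had an unadjusted p under 0.05, near the 7.38% of all genes, and the median was -0.23. In double KO against Clpp KO the median of this list was -0.02.

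Medians of matrix, fibroblast, atrial and adipocyte genes depended on WT replicates 2 and 4. All 32 genes of collagens, matrix and fibrosis were below 0 with a median of -0.58, which was -0.04 without those libraries, and the median of 11 fibroblast markers was -0.56 with all libraries and 0.01 without them. Atrial markers had a median of -0.70 with all libraries and 2.31 without WT replicates 2 and 4. White adipocyte markers did likewise, with -2.99 and 3.22. Neutrophil, red blood cell and T and B cell markers had medians below 0 in both settings, the last at -0.31 with all libraries and -0.36 without WT replicates 2 and 4. Only 3 of 6 neutrophil markers were tested, and that list summed to 1.0 to 1.71 CPM in Fgf21 KO and 1.82 to 4.57 CPM in WT. T and B cell markers (9 of 10 tested) summed to 2.18 to 3.21 CPM in Fgf21 KO and 2.62 to 4.8 CPM in WT. S100a8, a neutrophil protein gene, had 12, 4, 8 and 14 counts in Fgf21 KO and 22, 52, 22 and 37 counts in WT (-1.67 ± 0.45, adjusted p = 0.538, or -1.09 without WT replicates 2 and 4), and 8 red blood cell genes had a median of -1.26, or -1.33 without WT replicates 2 and 4. None of these marker genes was called. Red blood cell markers summed to 1280 to 3060 CPM in Fgf21 KO and 2500 to 7320 CPM in WT, and 0 of 8 had an unadjusted p under 0.05. In double KO against Clpp KO the medians were 0.08 for neutrophil, 1.53 for red blood cell and 0.11 for T and B cell markers.

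**Figure D5:**
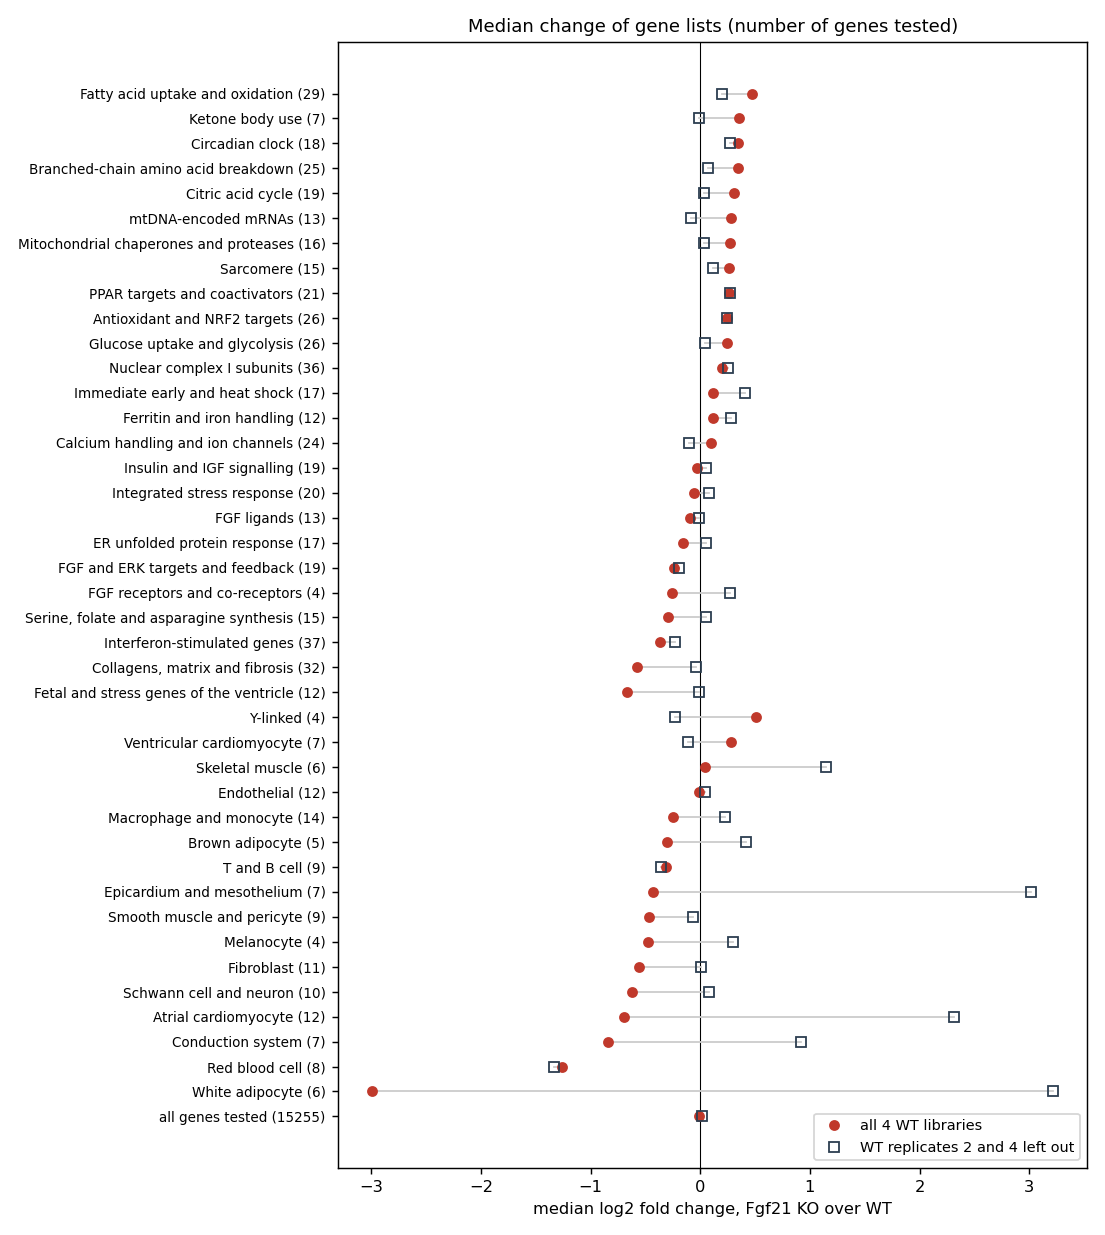
Median log2 fold change of each gene list with at least 4 tested genes, Fgf21 KO over WT, with all WT libraries (filled points) and with WT replicates 2 and 4 left out (open squares); the number of tested genes follows each name. Medians of fatty acid oxidation, interferon-stimulated and red blood cell genes keep their side of 0, and those of atrial, white adipocyte and mesothelial markers cross it.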

How the data were processed

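Counts per gene were deposited as a single table of 16 libraries from cardiac tissue. Per the submitters' processing notes, the authors used R 4.0.3, DESeq2 1.30.1, edgeR 3.32.1, kallisto 0.46.1 and fastp 0.21.0, with GRCm38.p6. kallisto divides reads that match several transcripts between them; how the whole numbers in the table were obtained from it is not stated. Libraries were made with a kit that keeps strand, per the labels' protocols, but counting by strand is not stated. The 8 libraries compared held 36260545 to 48608884 counts.

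Genes were kept by filterByExpr of edgeR 4.0.16 (count minimum 10, total minimum 15). TMM factors of the 8 libraries ran from 1.13 to 1.83. A robust edgeR quasi-likelihood model with 4 groups was fitted to all 16 libraries (R 4.3.3, 12 residual degrees of freedom), with two-sided tests and Benjamini-Hochberg adjustment over all genes at 0.05; a gene past it is called here. Alternatives used DESeq2 1.42.0, limma 3.58.1, other scalings, filters, designs and left-out libraries. Errors are SE for log2 fold changes and SD for levels. Floors and 95% intervals cover counting error only. On simulated counts for this comparison the model recovered 77.6% of added 2-fold changes (20.9% at 1.5-fold and 87.9% at 4-fold), and 6.8% of its calls were false. The simulation changed 200 genes and gave 133 calls, against 7 in the real comparison, which makes the cut on unadjusted p less strict. It also left out differences in tissue mix between libraries. Recovery in the real data may therefore be lower. Coordinates and sequences come from GENCODE M21, which lacks 550 of the table's gene identifiers.

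The rule named Fgf21, Clpp, every called gene, the 10 uncalled genes of smallest p in each direction with a mean of at least 1 CPM and groups that do not overlap, the 8 genes of smallest p starting within 1 Mb of Fgf21, and up to 4 genes of smallest p from each list. Members and lists were chosen with earlier results of these data known.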

Additional observations from a re-analysis of the deposited data

Results flagged for a closer look

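In 10 of 102 groups of 4 libraries examined, 1 library stood apart from the other 3 by a gap past Dixon's 95% critical value, which chance gives in about 1 of 20 groups. Egr1 was at 12.7 CPM in Fgf21 KO replicate 4, against 4.29 to 5.6 CPM in the others, and at 23.4 CPM in WT replicate 4, against 16.6 to 17.0 CPM. Fos was at 2.57 CPM in Fgf21 KO replicate 4, against 0.863 to 0.996 CPM. The mtDNA-encoded share was 29.2% in Fgf21 KO replicate 1, against 37.8% to 38.8%. With the nuclear copies added it was 34.2%, against 41.9% to 42.7%. WT replicate 2 was lowest for Bckdk (35.6 CPM, against 55.8 to 56.4) and Usp2 (32.8 CPM, against 47.1 to 49.5), and highest for Fgfr3 (15.6 CPM, against 7.13 to 8.52). Fgfrl1 was at 11.7 CPM in WT replicate 4, against 9.45 to 9.56, and Fam83e at 0.147 CPM in WT replicate 1, against 0.041 to 0.0511. Glns-ps1 was at 0.0196 CPM in Fgf21 KO replicate 2, a single count, against 0 in the other Fgf21 KO libraries.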

How the results depend on the processing

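In Fgf21 KO against WT, 7 genes were called; DESeq2 called 34 (20 higher, 14 lower), limma voom with quality weights 101 (57 higher, 44 lower) and a fit with an atrial covariate 13, and each of these kept the 7 genes. Leaving out single libraries gave 5 to 8 calls. The fit with the replicate number as a block gave 8 calls, 6 of them shared, and 6 in double KO against Clpp KO. Same-numbered libraries of the 2 genotypes correlated in their deviations at 0.094, 0.101, 0.364 and 0.08. For Fgf21 KO replicates 1 to 3 the same-numbered WT library correlated best, with the next at 0.058, 0.086 and 0.352. Fgf21 KO replicate 4 correlated best with WT replicate 2 (0.373). Whether same-numbered libraries share more than a number was not tested. In double KO against Clpp KO, 9 calls became 35 with DESeq2, 40 with voom, and 6 to 10 with single libraries left out. They became 5 with copies summed (chosen after seeing the data), where the copies have no value of their own. The interaction had 3 calls with DESeq2, 1 with voom, 1 with the atrial covariate, and 0 with any single library left out. Of 42 list medians, 24 were below 0; this was 14 without WT replicates 2 and 4, 12 without Fgf21 KO replicate 4 as well, and 21 to 25 with single libraries left out. The difference in Fgf21 CPM per library total, without TMM, was -0.0312 (-0.0259 with TMM), and -0.0416 to -0.0073 with single libraries left out, the smallest without WT replicate 3. The mtDNA-encoded share differed by 2.82 percentage points, by 0.256 to 5.12 with single libraries left out (the smallest without WT replicate 2) and by -3.2 without WT replicates 2 and 4. Signs turned in 9 of the gene values tried: Fgfr1 (0.11 without WT replicates 2 and 4, 0.07 without Fgf21 KO replicate 4 as well), Fgfr2 (0.34 without WT replicates 2 and 4), Fgfr3 (0.34 with voom, -0.25 to 0.21 with single libraries left out, the highest without WT replicate 2, 0.27 without WT replicates 2 and 4, 0.34 without Fgf21 KO replicate 4 as well), and, with library size alone, Fgfrl1 (-0.03) and Clpp (-0.04). The cause was not tested. Depth limits Fgf21, Klb and Gm5522, which had few or no counts in WT.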
